A study of Mus musculus with 18 samples.

Results

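Metformin, a glucose-lowering biguanide, was compared with free feeding in the liver of C57BL/6J mice, over every gene with a mean of at least 10 normalized counts across the 5 group means of the study. That level was reached by 11201 of the 12019 genes tabulated. Mice were 21 weeks old at the start and whole livers were taken after 8 weeks. The 3 metformin libraries came from mice given 37.5 mg/kg/day in chow, and the 6 libraries labelled as controls came from mice fed ad libitum; groups on rapamycin (42 mg/kg/day), TM5614 (20 mg/kg/day) and a 30% caloric restriction, with 3 libraries each, are used below for comparison. Livers were perfused with saline and minced before RNA extraction, and libraries were poly(A)-selected. All groups share the C57BL6 genotype, and the labels name neither sex nor collection time. The labels number the libraries and do not say that each is a separate animal, so p-values measure the spread between these libraries, which may in part be technical.

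Metformin is known to act in hepatocytes. It inhibits complex I of the mitochondrial respiratory chain, activates the energy sensor AMPK and lowers glucose output. Of the 18 genes that passed the test here, 5 chaperone genes, Sec23b and Gmppb, all higher under metformin, belong to another system, the endoplasmic reticulum (ER), where secreted proteins are folded by chaperones, N-glycosylated and packed into COPII vesicles. When folding falls behind, the unfolded protein response raises chaperone transcripts through the factors ATF6 and XBP1, which act at the ER stress response element of their promoters.

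Few genes passed the test. The authors' deposited table gives an adjusted p for 7350 genes, and at an adjusted p under 0.05 it calls 12 of them higher (0.163%) and 6 lower (0.0816%) under metformin. The steepest rises of the 12 were those of Lars2, the ribosomal RNA precursor Rn45s and the acute phase gene Saa1. The next in size was that of Creld2, an ER-resident chaperone-like protein. The median log2 fold change over genes with a mean of at least 10 was 0.009, with quartiles of -0.13 and 0.14. A log2 fold change of at least 1 in either direction was reached by 8 of the 18 called genes. No adjusted p stands in the authors' deposited table for 4669 genes, of which 3851 have a mean of at least 10; the lowest mean over the 5 groups among genes with one was 77.2 normalized counts.

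**Figure D1:**
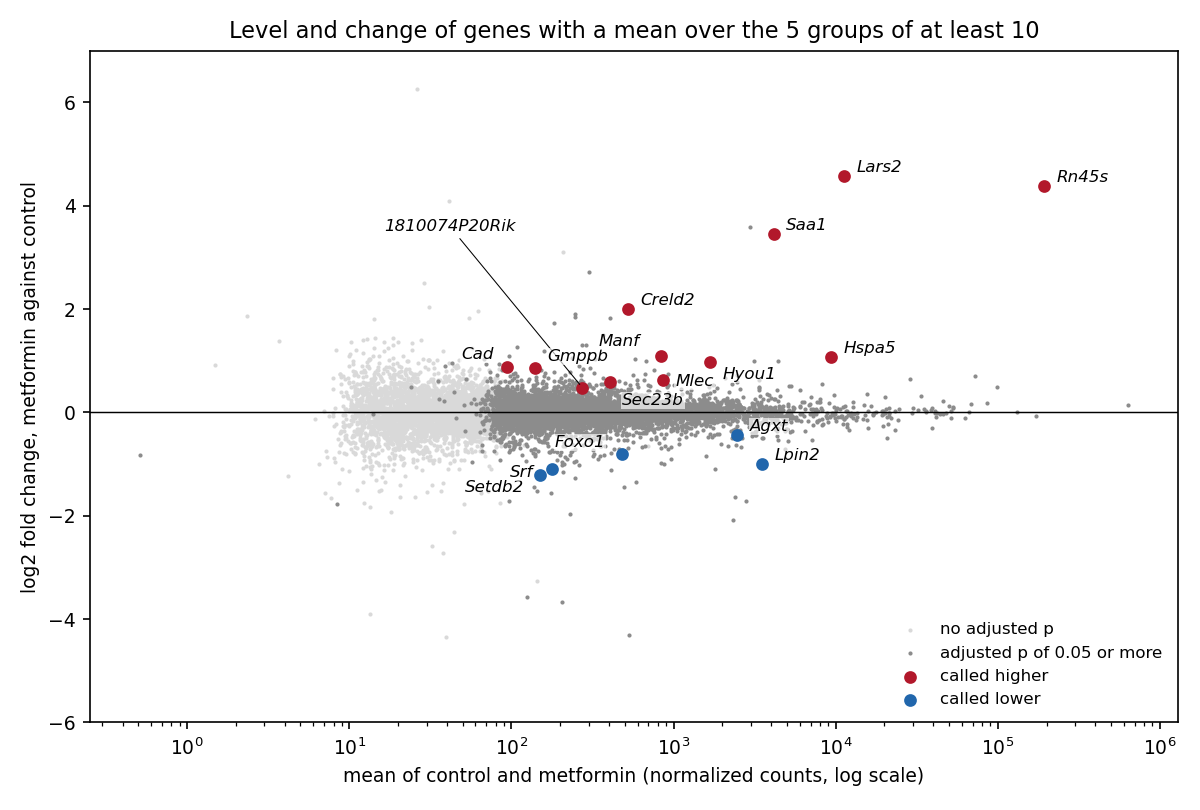
Each point is a gene whose 5 group means average at least 10, placed by the mean of its control and metformin values (normalized counts, log axis) and its log2 fold change under metformin in the authors' deposited table; red points were called higher, blue points lower, dark grey points had an adjusted p of 0.05 or more and light grey points had none. Of the 18 called genes, 17 are drawn and named; Rn45s, Lars2 and Saa1 stand highest among them, and 5 genes below the axis, all without an adjusted p, are not drawn.

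The authors' group means allowed the reads of single libraries to be worked out for many genes. A mean of normalized counts is a sum of whole reads times 1 weight per library, and for means up to 1000 the whole numbers that give the deposited value to its last digit were searched. Exactly 1 solution was found for 98.7% of 10907 metformin means and 89.2% of 10911 control means, and no mean tried was without a solution. Each mean, that of the control included, was made of 3 libraries, although the labels list 6 controls; which 3 of the 6 stand behind it is not known. The libraries are called A, B and C by the size of their weight, and these letters are not the replicate numbers of the labels. The 9727 genes resolved in both groups held 1188715 to 1313706 reads in a control library and 1053564 to 1305770 in a metformin library. Both groups were resolved for 8909 genes with a mean of at least 10, among them 8 of the 18 called genes. All 3 metformin libraries lay above all 3 control libraries for 452 of these genes (5.07%) and below them for 324 (3.64%).

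Promoter bases of 3 ER chaperone genes are shown first, for the ER stress response element that they hold; Creld2 and Hspa5 were called higher and Hsp90b1 was not called. This element was searched as CCAAT, 9 further bases and CCACG, on both strands, in the RefSeq windows of 300 bases around gene starts (build GRCm38.p6, from 250 bases before the start to 50 after it). It was found for 37 of 27025 genes (0.137%). A window was at hand for 12 of the 18 called genes, and the element stood in those of Creld2 and Hspa5. The search was chosen with the values of these genes known. The bases before the GENCODE start of Creld2 (chr15:88819396-88819645, plus strand), of Hsp90b1, a chaperone gene with 2 matches (chr10:86705510-86705694, minus strand), and the 30 bases around the match of Hspa5 (chr2:34772020-34772049, plus strand) are given from 5′ to 3′, with the element in capitals.
Creld2: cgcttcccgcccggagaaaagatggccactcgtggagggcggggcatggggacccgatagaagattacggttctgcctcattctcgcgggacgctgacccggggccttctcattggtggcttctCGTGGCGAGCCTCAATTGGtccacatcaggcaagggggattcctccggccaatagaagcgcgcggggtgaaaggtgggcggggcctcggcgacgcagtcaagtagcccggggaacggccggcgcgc
Hspa5: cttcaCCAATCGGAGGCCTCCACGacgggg
Hsp90b1: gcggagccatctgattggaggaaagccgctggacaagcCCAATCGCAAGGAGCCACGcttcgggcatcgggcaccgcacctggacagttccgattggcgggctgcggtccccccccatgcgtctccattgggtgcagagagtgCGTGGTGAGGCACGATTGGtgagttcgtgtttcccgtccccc

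In Creld2 the element begins 126 bases before the gene's start and lies on the minus strand. In Hspa5 it begins 65 bases before the RefSeq start, which lies inside the longest GENCODE transcript. The elements of Hsp90b1 begin 147 and 42 bases before its GENCODE start, where the printed stretch ends, 1 on each strand. Of the 37 genes with the element, 15 have a mean of at least 10, and the authors' deposited table holds an adjusted p for 12 of these. Creld2 and Hspa5 were called higher, and none was called lower, beside 0.163% and 0.0816% of all genes. The log2 fold change was above 0 for 11 of the 15, with a median of 0.22, against 52.0% above 0 and a median of 0.01 over all genes. Creld2, Hspa5, Hsp90b1, Calr and Canx, among others of the 15, are also in the list of ER chaperones described next. The counts of the element and of that list are therefore not separate results. The values not called in the authors' deposited table range from 0.95 for Derl3 and 0.75 for Syvn1, both of ER-associated degradation, to -2.72 for Xlr3a.

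ER chaperones and folding enzymes held the largest number of called genes of any list described here. Of 24 members in the table, 5 rose (Creld2, Manf, Hspa5, Hyou1 and Mlec), 0 fell and 19 did not pass. The log2 fold change was above 0 for 22 of the 24, and the median was 0.25. Of all genes, 0.163% were called higher in the authors' deposited table. The lists and their members were chosen with earlier results of these data known. That share is therefore not a like background, and the rank of this list is no separate evidence.

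Creld2 lies on chromosome 15 from 88819646 to 88826683 (mm10, plus strand, protein-coding). Its control libraries A, B and C held 147, 306 and 172 normalized counts, and its metformin libraries 514, 1494 and 500.3. Every metformin library was above every control library, and library B of the metformin group stood far above the other two. The authors' deposited table gives means of 208 and 836, a log2 fold change of 2.0 and an adjusted p of 1.26e-04, the lowest of the comparison. In limma on the recovered libraries the log2 fold change was 1.87 with a standard error of 0.42, and it was 1.35 without metformin library B.

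Hspa5 encodes BiP, the main Hsp70 chaperone of the ER lumen. The authors' deposited table puts it at 6022 normalized counts in the control and 12633 under metformin (1.07 on the log2 scale, adjusted p = 0.0141). Hyou1, a large Hsp70-like chaperone that helps BiP exchange its nucleotide, went from 1134 to 2233 in the authors' deposited table (0.98, adjusted p = 0.00304). Manf, a small ER protein that is secreted under ER stress, went from 539.9 to 1147 there (1.09, adjusted p = 0.00114, the authors' deposited table). Mlec, the ER lectin malectin, which binds glucosylated N-glycans, was at 675 and 1046 in the authors' deposited table (0.63, adjusted p = 0.00170). The metformin means of Hspa5, Hyou1, Manf and Mlec lie above 1000 and were not searched for single reads, so for these 4 only group means are at hand.

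Other chaperones of the list had positive log2 fold changes that did not pass. These were, in the authors' deposited table, 0.62 for the ER oxidase Ero1lb (adjusted p = 0.0989), 0.55 for Hsp90b1, the Hsp90 of the ER (0.301), 0.53 for the disulfide isomerase Pdia4 (0.406) and 0.53 for the BiP co-chaperone Dnajb11 (0.247). The lectin chaperones that hold glycoproteins had values close to 0: in the authors' deposited table Calr was at 0.15 and Canx at 0.07, with adjusted p of 0.975 and 0.980. Only Txndc11 (-0.10) and Sil1 (-0.05) were below 0 among the 24.

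The next steps of the secretory route held 1 called gene each. Of 36 genes for COPII and COPI coats and the ER translocon, Sec23b rose and the other 35 did not pass; 30 of the 36 were above 0 and the median was 0.14. Sec23b is a coat subunit of vesicles that leave the ER. It held 336, 315 and 317 normalized counts in the control libraries and 456, 596 and 412 in the metformin libraries, with no overlap. The authors' deposited table gives a log2 fold change of 0.60 and an adjusted p of 0.0367. The translocon subunit Sec61g, at 241, 163 and 237 against 266, 368 and 267, also showed no overlap, but the authors' deposited table gives it an adjusted p of 0.492.

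Of 32 genes for N-glycosylation and nucleotide sugars, Gmppb rose, 26 did not pass and 5 have no adjusted p; 28 were above 0 and the median was 0.12. Gmppb makes GDP-mannose, the mannose donor for glycans. Its control libraries held 123, 84.2 and 90.3 normalized counts and its metformin libraries 169, 235 and 138, a separation without overlap. The authors' deposited table gives 0.87 on the log2 scale with an adjusted p of 0.0152. Gfpt1, the entry enzyme of the hexosamine pathway, stood at 195, 231 and 225 in the control and 288, 368 and 281 under metformin, with an adjusted p of 0.0989 in the authors' deposited table. In all, 5 of 23 resolved members of this list had every metformin library above every control library and none had the reverse, beside 5.07% and 3.64% of all resolved genes.

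No called gene stood in the lists for ER-associated degradation or for the sensors and transcription factors of the unfolded protein response. Of 15 genes of ER-associated degradation (median 0.08), 14 did not pass. The other, Derl3, at 0.95 in the authors' deposited table, was given no adjusted p. Syvn1, the ubiquitin ligase of this list, held 512, 458 and 528 normalized counts in the control and 661, 1296 and 558 under metformin. Its groups did not overlap, and metformin library B was highest. Of 12 sensors and transcription factors of the unfolded protein response, 10 have an adjusted p and none passed. Their median was 0.03, or -0.01 when both groups were scaled to a common total without Rn45s. Xbp1 had a log2 fold change of 0.46 with an adjusted p of 0.897 in the authors' deposited table. Of 18 targets of ATF4, the factor of the amino acid and integrated stress response, none was called; 6 have an adjusted p, and the median was -0.25. The nearest to a call among 16 cytosolic heat shock chaperones was the Hsp90 partner Chordc1, at 192, 168 and 233 normalized counts in the control and 312, 325 and 425 under metformin, with an adjusted p of 0.0571 in the authors' deposited table.

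**Figure D2:**
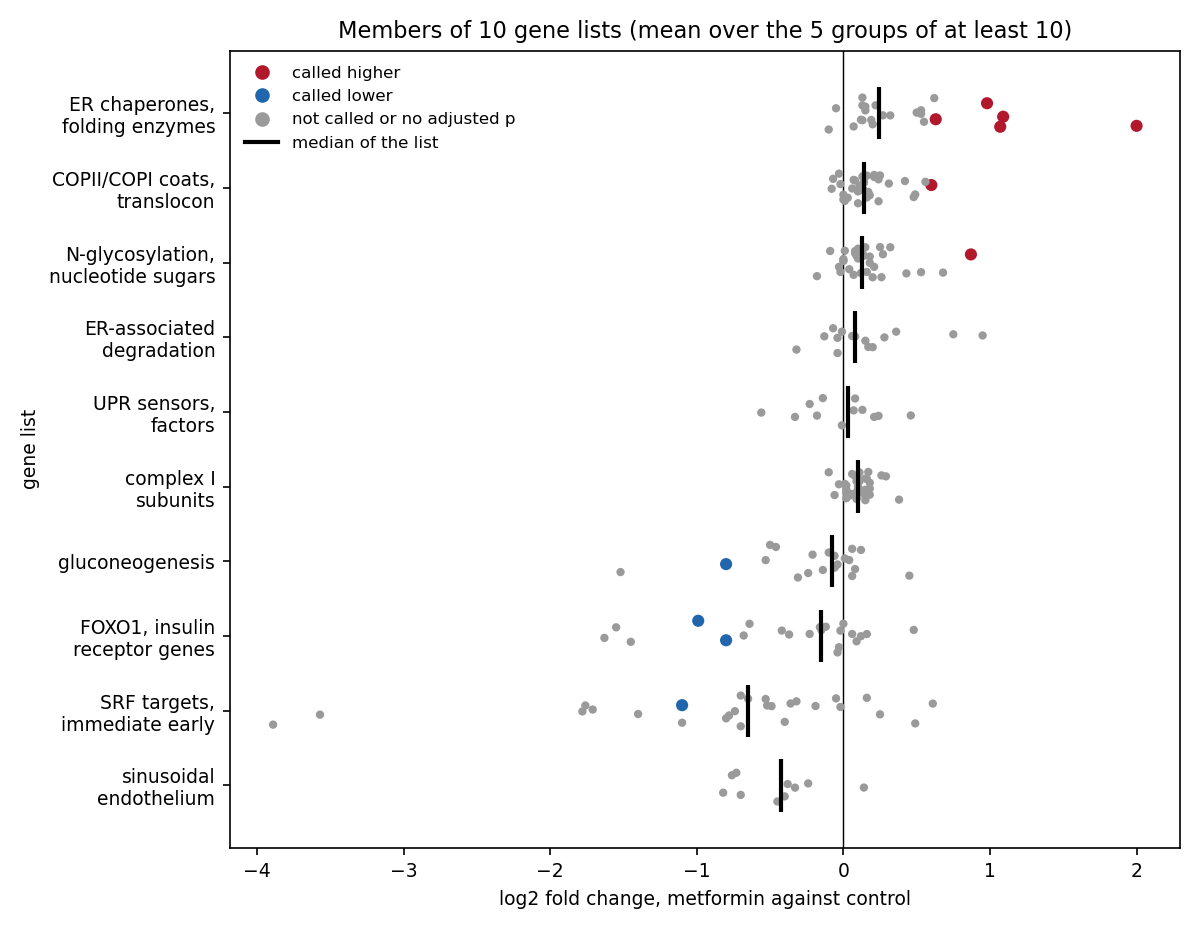
Each point is a gene with a mean of at least 10, in 1 of 10 gene lists (rows), placed by its log2 fold change under metformin in the authors' deposited table; red and blue points were called higher and lower, grey points were not called or have no adjusted p, and the black bar is the list's median. The chaperone row holds 5 called genes and a median of 0.25, and the row of SRF targets holds 1 called gene and a median of -0.65.

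Most genes of the pathways that metformin is best known for did not pass. The FOXO factors switch on glucose-producing genes when insulin is low, and Foxo1 was the only called member of the gluconeogenesis list, with 1 of 20 lower, 18 not passing and 1 without an adjusted p. Foxo1 held 569, 697 and 553 normalized counts in the control and 281, 435 and 332 under metformin, all lower (log2 fold change -0.80, adjusted p = 0.00304, the authors' deposited table). The rate-limiting enzymes Pck1 and G6pc were at -0.50 (adjusted p = 0.888) and -0.53 (0.955) in the authors' deposited table. Ppargc1a, a coactivator of gluconeogenesis and mitochondrial genes, held 229, 319.5 and 93.5 in the control and 89.9, 65.8 and 68.1 under metformin, with an adjusted p of 0.0912 in the authors' deposited table. The control libraries of Ppargc1a spread widely, and library C was close to the highest metformin library.

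Lpin2, a phosphatidate phosphatase of triglyceride synthesis, fell from 4670.4 to 2347 in the authors' deposited table (-0.99 on the log2 scale, adjusted p = 0.0177). With Foxo1 it made up the 2 called members, both lower, of the 22 FOXO1 and insulin receptor genes; 5 of the 22 were above 0 and the median was -0.15, beside 0.0816% called lower and 52.0% above 0 over all genes. Igfbp1 (-1.63, adjusted p = 0.834) and Foxo3 (-1.55, adjusted p = 0.311) had larger negative values in the authors' deposited table, without passing. Foxo3 shows the spread behind such a value, with 179, 500.1 and 104 normalized counts in the control and 131, 72.5 and 63.3 under metformin, where control library B alone is far above the rest.

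None of 26 AMPK and energy-sensing genes passed (median -0.03). The catalytic subunits of AMPK, Prkaa1 and Prkaa2, were at 0.03 and 0.01, and its upstream kinase Stk11 was at -0.20, in the authors' deposited table. Of 9 genes for biguanide transport and related targets, 7 have an adjusted p and none passed. The exporter Slc47a1 was at -0.10 and the glycerophosphate dehydrogenase Gpd2 at -0.21 in the authors' deposited table. Gdf15, a stress hormone known to be raised by metformin, held 31.2, 228 and 33.6 normalized counts in the control and 26.1, 65.8 and 7.2 under metformin, and library B of the control was the highest of the 6. Fgf21, Igf1, Fasn, Srebf1, Cpt1a and Cyp7a1 lay between -0.40 and 0.24 in the authors' deposited table, and none was called; Fgf21 has no adjusted p.

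Nuclear-encoded subunits of complex I were on the positive side by small amounts: 0 of 37 passed, 34 were above 0 and the median was 0.10. Complexes II to V had a median of 0.09 (29 of 38 above 0) and cytosolic ribosomal proteins one of 0.13 (73 of 76 above 0), with no member called in either list. Scaling both groups to a common total without Rn45s lowered these 3 medians to 0.07, 0.06 and 0.10. None of 30 genes of fatty acid oxidation and ketogenesis passed (median -0.04).

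Single called genes stood in several metabolic lists. Cad, the enzyme that carries out the first steps of pyrimidine synthesis, held 61.5, 83.2 and 54.6 normalized counts in the control and 118, 133 and 115 under metformin, without overlap (log2 fold change 0.87, adjusted p = 0.0332, the authors' deposited table). It was the only called gene of 24 for pyrimidine and purine synthesis (19 above 0, median 0.09). Agxt, the peroxisomal aminotransferase that removes glyoxylate, fell from 2844 to 2097 in the authors' deposited table (-0.44, adjusted p = 0.0187), the only one called of 35 genes for glyoxylate, serine and amino acid breakdown (28 below 0, median -0.10). The transcript 1810074P20Rik stood at 233, 209 and 247 against 343, 326 and 289 (0.48, adjusted p = 0.0411, the authors' deposited table).

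Setdb2 and Srf, both called lower, encode regulators of transcription. Setdb2, of the SET domain family of histone H3 lysine methyltransferases, held 261, 234 and 138 normalized counts in the control and 86.1, 82.6 and 105 under metformin. Its groups did not overlap (log2 fold change -1.21, adjusted p = 0.00743, the authors' deposited table), while the other 13 genes of its list did not pass or have no adjusted p (list median 0.05).

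Srf, serum response factor, switches on actin and immediate early genes through CArG boxes, and its own promoter is known to hold such boxes. A search for the CArG box by its usual consensus found it in the windows of 488 of 27025 genes (1.81%), and that of Srf held 2, beginning 69 and 49 bases before its GENCODE start. Of these 488 genes, 124 have a mean of at least 10, and their median log2 fold change was 0.00. An adjusted p stands for 86 of the 488. Srf was the 1 called lower and 0 were called higher, beside 0.0816% and 0.163% of all genes. Srf is shown because it was called, so its call is no separate result for genes with the box. The bases before that start of Srf (chr17:46556176-46556412, minus strand, GRCm38.p6, RefSeq) are shown with both boxes in capitals.
Srf: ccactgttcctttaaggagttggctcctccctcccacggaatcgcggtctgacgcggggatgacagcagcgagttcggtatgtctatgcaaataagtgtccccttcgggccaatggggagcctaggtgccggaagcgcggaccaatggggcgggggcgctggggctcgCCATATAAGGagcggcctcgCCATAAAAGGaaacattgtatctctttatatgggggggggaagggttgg

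Srf held 260, 313 and 151 normalized counts in the control and 128, 112 and 99.1 under metformin. All metformin libraries were lower, and control library C was the nearest to them (log2 fold change -1.10, adjusted p = 0.0460, the authors' deposited table). Of 27 SRF targets and immediate early genes, Srf, the factor itself, was the 1 called lower, beside 0.0816% of all genes. Of the others, 18 did not pass and 8 have no adjusted p. Below 0 were 23 of the 27, and 4 were above 0, the highest at 0.61. The median was -0.65. Of all genes, 52.0% were above 0. Among 22 resolved members, Srf, Fosl2 and Ier3 had every metformin library below every control library, beside 3.64% of all resolved genes. Atf3, the stress-induced factor of this list, held 146, 529 and 17.9 normalized counts in the control and 26.1, 16.7 and 15.5 under metformin, so that control libraries A and B carried the difference (adjusted p = 0.351, the authors' deposited table). Ppp1r3g, a glycogen-targeting phosphatase subunit that is in none of the lists and was close to a call (adjusted p = 0.0989, the authors' deposited table), showed the same order of control libraries, at 234, 865 and 44.1, against 23.2, 56.9 and 9.6 under metformin.

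**Figure D3:**
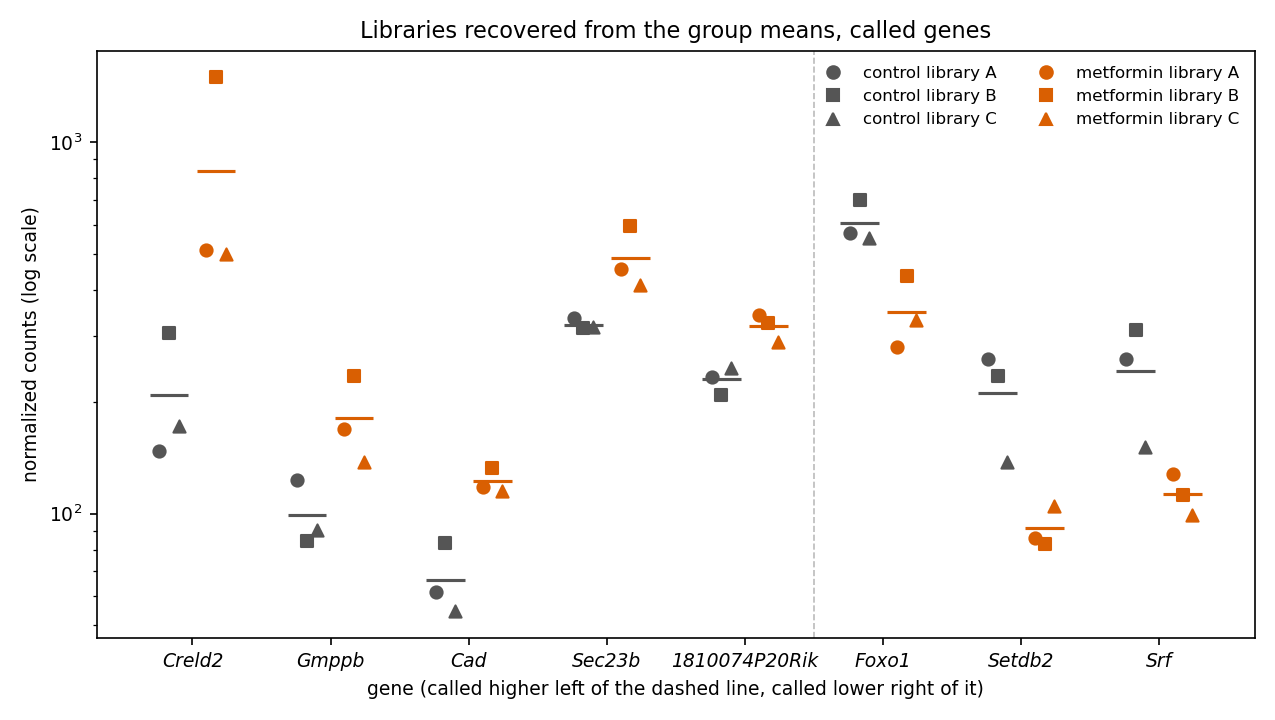
Normalized counts (log axis) of the 8 called genes whose libraries could be recovered in both groups; grey symbols are control libraries A, B and C, orange symbols metformin libraries A, B and C, and bars are means of 3 libraries. For each of the 8 genes the groups do not overlap, as for 8.71% of all resolved genes with a mean of at least 10. The 8 were called on these same groups, so the separation is no separate evidence. Metformin library B is the highest of the 6 for Creld2, Gmppb, Cad and Sec23b.

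Saa1, the acute phase serum amyloid A that the liver secretes in inflammation, rose from 696 to 7622 in the authors' deposited table (3.45 on the log2 scale, adjusted p = 0.0121). It is near-identical to its neighbour Saa2, so that the split of reads between them is uncertain; Saa2 was at 450.4 and 5437 (adjusted p = 0.0866, the authors' deposited table). Saa1 was the 1 called gene of 30 acute phase genes, 22 of which were above 0 (median 0.17). Lcn2, lipocalin 2, was at 87.0, 38.5 and 112 normalized counts in the control and 55.1, 1267 and 246 under metformin. Its difference in means came from metformin libraries B and C, and library A lay within the control range. The fibrinogen chain Fgb (0.22, adjusted p = 0.964) lay close to the control value in the authors' deposited table.

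The steepest rises, named above, were those of the ribosomal RNA precursor Rn45s and of Lars2. The authors' deposited table gives Rn45s 17687 normalized counts in the control and 366479 under metformin (log2 fold change 4.37, adjusted p = 0.00561), and its share of the summed group means was 0.227% and 4.40%. Ribosomal RNA is largely removed by poly(A) selection. Lars2, named for the mitochondrial leucyl-tRNA synthetase, went from 911 to 21729.7 in the authors' deposited table (4.58, adjusted p = 0.00295). Per 1000 counts of Rn45s it held 51.5 in the control, 53.7 under rapamycin, 59.3 under metformin, 61.2 under TM5614 and 64.7 under restriction, a nearly fixed ratio while Rn45s itself ranged from 10283 to 366479. The other 16 mitochondrial tRNA synthetases of the list held no called gene. Rpph1, the RNA part of the tRNA-processing ribonuclease P and not a polyadenylated transcript, had 0, 2 and 0 reads in the control libraries and 71, 12 and 61 in the metformin libraries; it has no adjusted p. Reads of Rn45s and Lars2 could not be resolved by library, and whether Lars2 reads came from ribosomal RNA, or the residual ribosomal RNA moved with any other gene, was not tested.

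The 18 genes were then set beside the 3 other interventions, whose comparisons use the same control mean, so that their directions are not independent. The metformin mean was the highest of the 5 group means for 12 of 12 raised genes. These genes were called for a metformin mean above the control mean, which favours that rank. The same rank was held by 16.7% of all genes with a mean of at least 10. Those genes were not chosen for a rise, so that share is not a like background. Among the genes that fell, the metformin mean was the lowest of the 5 for Foxo1, Lpin2 and Srf. The direction was shared with the other drugs. All 12 raised genes were above the control under rapamycin, and 10 of the 12 were under TM5614. All 6 genes that fell were below it under both. Creld2, for one, had log2 fold changes of 1.08 under rapamycin and 1.05 under TM5614 in the authors' deposited table. Under rapamycin the authors' deposited table calls Hyou1 and Sec23b higher and, among the genes that fell, Agxt and Setdb2 lower. Under TM5614 it calls Mlec and Saa1 higher and Agxt, Setdb2 and Srf lower, again in the authors' deposited table. The shares of all genes called under the other interventions were not counted. Differences between interventions were not tested.

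Caloric restriction gave values on the other side of the control for several of these genes. Of the raised genes, the authors' deposited table calls Manf (-0.79), Hyou1 (-0.63), Mlec (-0.60), Sec23b (-0.49) and 1810074P20Rik (-0.38) lower under restriction. The restriction mean was the lowest of the 5 for 10 of the 12 raised genes. How many of all genes are called lower under restriction, or have their lowest mean there, was not counted. These values can therefore not be read as particular to the genes raised under metformin. Foxo1 (0.75) and Lpin2 (0.72), lower under metformin, are called higher under restriction in the authors' deposited table, while Setdb2 (-0.96) and Agxt (-0.65) are called lower under both. For Foxo1 the recovered metformin libraries (281, 435 and 332) lie below a restriction mean of 1020.4 in the authors' deposited table.

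**Figure D4:**
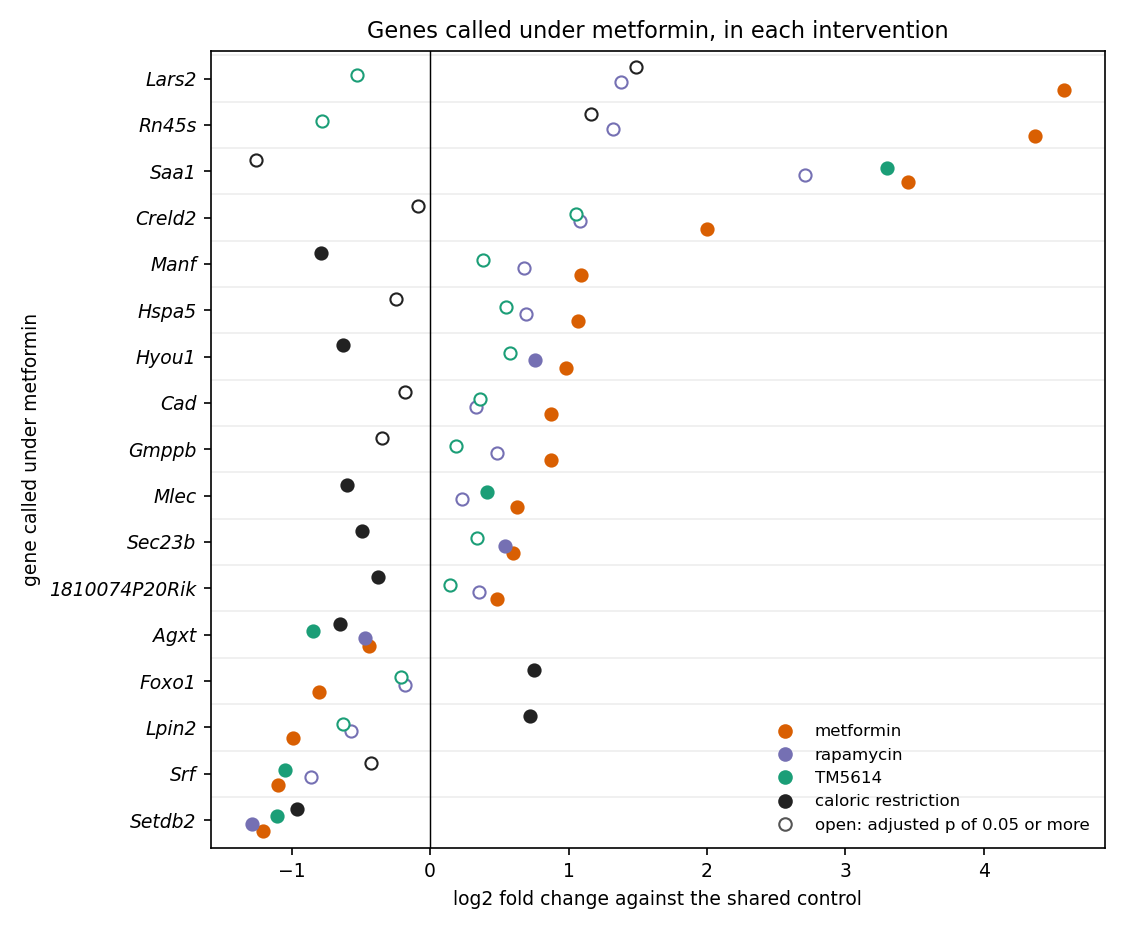
Rows are 17 of the 18 genes called under metformin and the horizontal axis is the log2 fold change of each intervention against the shared control in the authors' deposited table; filled points have an adjusted p under 0.05 and open points do not. All 12 raised genes, which were chosen for a rise under metformin, have their highest value there. Manf, Hyou1, Mlec, Sec23b and 1810074P20Rik have filled points below 0 under caloric restriction.

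Whole liver holds several cell types, and in bulk RNA fewer cells of a type and less RNA per cell cannot be told apart. The 12 hepatocyte markers in the table were abundant, as the tissue label implies, with summed means of 1066276 in the control and 1124550.1 under metformin and none called. Of 10 markers of sinusoidal endothelium, which lines the liver's capillaries, 9 were below 0 (median -0.43) and none passed. Their sum was 2399, 1953 and 1692 normalized counts in the control libraries and 1191, 1405 and 1709 in the metformin libraries, so that metformin library C lay within the control range. The scavenger receptor Stab2 held 307, 229 and 231 against 129.6, 138 and 185, and the receptor Kdr 306, 288 and 172 against 166, 113 and 156. Stab2, Kdr, Oit3 and Fcgr2b had every metformin library below every control library, 4 of 10 resolved markers beside 3.64% of all resolved genes. The part of these cells in the genes that fell was not tested.

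Kupffer cell and macrophage markers had a median of -0.37 (1 of 11 above 0, none called), and their sums were 3729.9, 2002 and 1182 in the control and 1344, 1661 and 1957 under metformin. Control library A carried much of that difference: the macrophage receptor Marco held 734, 22.3 and 28.4 normalized counts in the control and 14.5, 24.5 and 43.0 under metformin. The same library held transcripts of pancreatic acinar cells, with 549, 0 and 0 for the amylase gene Amy2a5 and 227, 0 and 0 for the chymotrypsinogen gene Ctrb1, both at 0 in all metformin libraries. The 8 resolved called genes had the same direction without this library, as genes whose groups do not overlap must. The log2 fold changes of limma were then 1.66 for Creld2, -0.85 for Foxo1, -0.98 for Setdb2 and -0.95 for Srf. Without control library B, the highest for Atf3, Ppp1r3g and Foxo3, they were 2.19, -0.70, -1.05 and -0.82.

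Neutrophil markers summed to 190.0, 90.3 and 43.1 in the control and 10.6, 122 and 56.1 under metformin, and none of 4 has an adjusted p. Adipocyte markers were all above 0 (7 of 7, median 0.48, none called). Their sums were 1347, 1553 and 1188 in the control and 1460.3, 2264 and 2092 under metformin. The hormone leptin (Lep) stood at 186, 185 and 165 against 256, 322 and 251, without overlap and with an adjusted p of 0.821 in the authors' deposited table.

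**Figure D5:**
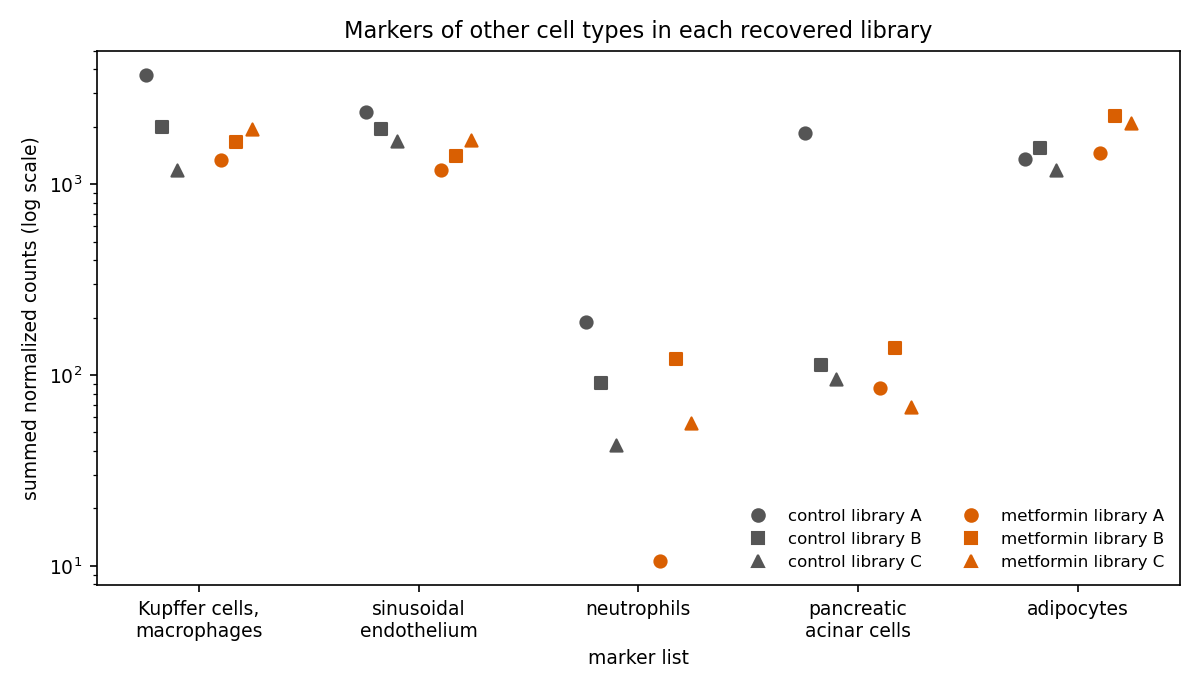
Summed normalized counts (log axis) of 5 marker lists in each recovered library; grey symbols are control libraries A, B and C and orange symbols metformin libraries A, B and C. Control library A is highest for macrophage, endothelial, neutrophil and acinar markers, and in the acinar list it stands at 1864 while the other 5 libraries lie between 68.1 and 139.

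A further 16 genes had an adjusted p from 0.05 to under 0.10 in the authors' deposited table, 9 with a positive and 7 with a negative log2 fold change. Among those resolved, Fndc3b, an ER membrane protein with fibronectin domains, held 167, 197 and 183 normalized counts in the control and 301, 307 and 412 under metformin. The sterol-linked ER ubiquitin ligase Rnf145 stood at 197, 129 and 179.6 against 218, 291 and 358. Pde2a, a cyclic nucleotide phosphodiesterase, held 145, 126 and 113 in the control and between 77.0 and 85.1 under metformin. These 3 genes showed no overlap between the groups, and neither did Chordc1, Gfpt1 and Ppargc1a, given above. The mitochondrial folate carrier Slc25a32 (262, 388 and 184 against 128, 135 and 196) and the kinase Sgk1 (299, 589 and 161 against 134, 173 and 127) overlapped, as did Ppp1r3g. Of all resolved genes with a mean of at least 10, 8.71% showed no overlap. The genes here were picked by a low adjusted p on these same groups, which favours separation. The bilirubin-conjugating enzyme Ugt1a1 and the growth hormone signal carrier Stat5b were at -0.35 (adjusted p = 0.0724) and -0.66 (0.0989) in the authors' deposited table. Uso1, a tether of ER-to-Golgi vesicles, and Ubxn4, of ER-associated degradation, were at 0.34 (0.0989) and 0.33 (0.0995) in the authors' deposited table.

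The calls were those of the authors' test and did not carry over to a test on the recovered libraries. With limma on log2 normalized counts of 3 against 3 libraries, 0 of 8909 genes (0%) passed an adjusted p of 0.05, and 378 (4.24%) had an unadjusted p under 0.05. For the 8 called genes that could be fitted, limma gave an adjusted p of 1.0 for each. It gave the same direction for each, as it must where the groups do not overlap. The standard errors were 0.18 for Foxo1 (-0.81), 0.24 for Setdb2 (-1.16), 0.25 for Srf (-1.04), 0.23 for Gmppb (0.85), 0.20 for Cad (0.88), 0.15 for Sec23b (0.58) and 0.14 for 1810074P20Rik (0.47). The lowest adjusted p of limma was 0.0545, for G0s2, an inhibitor of the triglyceride lipase ATGL, at 161, 167 and 143 normalized counts in the control and 355, 369 and 435 under metformin. G0s2 was not called by the authors (0.727 as adjusted p, the authors' deposited table) and is named because of this value. Fitted alone, the 3850 resolved genes (mean of at least 10) that lack an adjusted p of the authors gave 0 calls in limma, with 168 (4.36%) at an unadjusted p under 0.05.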

How the data were processed

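RNA-seq reads of mouse liver were aligned with HISAT2 2.0.5 to mm10, per the submitters' processing notes; how genes were counted, and on which strand or annotation, is not given in the sources used here. A single table was used, and it was deposited by the authors. Per the file headers it holds 1 normalized signal per group, a mean of counts divided by size factors, and for each intervention, set against the control, a p-value (adjusted) and a log2 fold change relative to it; the table's name credits DESeq2, run by the authors. Recovered size factors were 0.952 to 1.06 in the control and 0.838 to 1.03 under metformin. Another table's 18 columns of values per library match none of the labels and were not used, so the planned limma fit gave way to the authors' adjusted p.

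A gene was called at an adjusted p under 0.05. Named genes are all those called or with an adjusted p under 0.10, up to 4 members per list with the largest log2 fold change, and fixed metformin-related genes; others (Hsp90b1, Calr, Thbs1, Pdia4, Dnajb11, Canx, Txndc11, Sil1, Fosl2, Ier3, Xlr3a, Gm7334, G0s2 and the muscle genes) were chosen after their values were seen; 2 genes that the rule names are not reported here. The members and lists were chosen with earlier results of these data known. Lists are described by counts of calls and by the median over members with a mean of at least 10.

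Reads per library were worked out from the group means as described with the results, a step chosen after seeing the data. Deposited means have 10 significant digits; genes with more than 1 solution were left out. limma 3.58.1 (R 4.3.3) with a trend was fitted to log2(normalized counts + 1) of the 6 libraries, with Benjamini-Hochberg adjustment over all genes fitted. Both steps were tested on simulated data. Adjusted thresholds of 0.01 and 0.10, other filters, scalings and pseudocounts, and leaving out each recovered library were tried. Of the gene names, 18 had been turned into dates and are not named. Coordinates are those of GENCODE vM21 (mm10).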

Additional observations from a re-analysis of the deposited data

How the results depend on the processing

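The count of 18 called genes became 34 at an adjusted p under 0.10, 9 under 0.01 and 8 with a log2 fold change of at least 1 either way as well; limma on the recovered libraries, added after seeing the data, called 0. It was 18 with either filter at 50 and 14 with the adjustment carried to all genes. A filter at 50 on the mean over the 5 groups could not lower it, because genes with an adjusted p had means of at least 77.2. List members called numbered 16, and 23 under 0.10. In limma, a mean of at least 50 gave 1 call (G0s2, adjusted p = 0.0485), and leaving out each library in turn gave 0 to 1: without control library A, Gm7334 (control 4.73, 74.0 and 37.8 normalized counts, metformin 0 in each) had an adjusted p of 0.0108. No call came without a level filter (406 of 9727 genes at an unadjusted p under 0.05) or with all 5 groups in 1 fit (442 of 7821). The cause was not tested.

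Of 72 values of the called genes under other scalings and pseudocounts, and 48 under leave-one-out, 0 reversed. Leaving out 1 library could not reverse a gene whose groups do not overlap, so the 48 values do not test the direction. Over the limma settings the log2 fold change of Creld2 ran from 1.35 to 2.19 and the lowest adjusted p of the 8 genes was 0.0973 (Setdb2). Rescaling without Rn45s moved values by 0.03. Of 227 alternative list medians, 27 did not keep their sign; 16 of these took the other treated groups as reference. No paired analysis was possible because neither the group means nor the recovered libraries carry replicate numbers; for the same reason the planned replicate block and the planned removal of numbered replicates were not run. Genes with means over 1000 have no value per library here, so no spread can be given for Hspa5, Hyou1, Manf, Mlec, Lpin2, Agxt, Rn45s, Lars2 or Saa1.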

Other observations

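Skeletal muscle transcripts, noticed after their values were seen, stood a little higher under metformin with no call. The fast myosin Myh4 held 282, 326 and 251 normalized counts in the control libraries and 378, 521 and 462 in the metformin libraries, the troponin Tnnt3 94.5, 138 and 95.6 against 151, 238 and 193, and the actinin Actn3 71.9, 57.8 and 63.0 against 95.7, 127 and 135. None of these overlapped between groups. Every metformin library lay above every control library for 5.07% of all resolved genes too, and the muscle genes were picked with their values known. The authors' deposited table gives an adjusted p of 0.706 for Myh4, 0.420 for Tnnt3 and 0.519 for Actn3.

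Some large differences in means rested on 1 or 2 libraries. Moxd1, a monooxygenase-like gene, held 226 normalized counts in metformin library B and at most 13.7 in the other 5 libraries. The ribosomal protein gene Rps27 stood at 136 in the same library and at 10.5 or less in the others. The clock output gene Dbp held 187, 243 and 101 in the control and 156, 940.5 and 793 under metformin, with library A within the control range (adjusted p = 0.141, the authors' deposited table). The time of collection is not in the labels.

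Thbs1, thrombospondin 1, held 100.2, 43.6 and 24.2 in the control and between 7.2 and 10.6 under metformin, all below the control, and the authors' deposited table holds no adjusted p for it; limma gave -2.25 with a standard error of 0.48 and an adjusted p of 1.0.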
